A study of Homo sapiens with 14 samples.

Results

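BRD9 and 8 other genes of the BAF chromatin remodelling complexes (BRD7, SMARCA2, SMARCA4, SMARCC1, SMARCD1, SS18, BCL7A and ACTL6A) were followed through every splice event listed for them in HEK293T cells with and without mutant SF3B1. Events of these 9 genes were taken when the mean number of junction reads of both genotypes was at least 10, whatever the type of event. This gave 155 events of the 114349 in the table. Of these, 106 were listed as cassette exons and 33 as pairs of mutually exclusive exons. Another 12 were listed as pairs of alternative 3′ splice sites and 4 as pairs of alternative 5′ splice sites. No retained intron of these genes was among them, and 33 further events had fewer than 10 reads. The genes were chosen because BRD9 was known to change in this same comparison, so the values of the 9 genes are a description, and a call by the fit over all events is reported for them without being read as evidence.

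The RNA-Seq compared 3 SF3B1 K700K (WT) with 3 SF3B1 K700E (MT) libraries of HEK293T, a human embryonic kidney line. The lines are isogenic, and the lysine-to-glutamate change was placed at the endogenous SF3B1 locus. Whether each genotype is 1 clone or several, and whether the 3 libraries came from separate cultures, is not given in the sources used here, so the spread between libraries may be technical and a clone and its genotype cannot be told apart. A second data set mapped R-loops by DNA:RNA hybrid immunoprecipitation (DRIP-seq) in Nalm-6, a human leukemic B cell line, again K700K and K700E, with 2 untreated and 2 RNase H1-treated (RNH1) libraries of each genotype. The splice table holds inclusion levels and no expression values or sequence variants, so neither the mutation nor the cell type could be checked from it.

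SF3B1 is the part of the U2 snRNP that holds the branch point of an intron while the 3′ splice site is chosen, and hotspot mutations such as K700E are known for the use of cryptic 3′ sites a short distance upstream of the usual ones. BAF complexes slide and evict nucleosomes with an ATPase motor. They come as canonical BAF, PBAF and non-canonical BAF, and BRD9, a bromodomain protein that binds acetylated lysines, belongs to the non-canonical form. A poison exon is an exon whose inclusion brings an early stop codon into the message, and such messages are usually removed by nonsense-mediated decay.

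The BRD9 poison exon is shown first, as the event the 9 genes were chosen around. BRD9 (ENSG00000028310.18) is on the minus strand of chromosome 5 at 850291 to 892801 (GRCh38). The exon lies between exon 14 (chr5:870473-870575, 103 bases) and exon 15 (chr5:865414-865581, 168 bases) of the 16 exons of transcript ENST00000467963.6, after 1068 bases of intron and before another 3663. It can start at either of 2 sites that are 10 bases apart. The upstream site gives an exon of 160 bases (chr5:869245-869404) and the downstream site an exon of 150 bases (chr5:869245-869394). The GENCODE annotation holds each form in 3 of 19 BRD9 transcripts, and all 3 are annotated as targets of nonsense-mediated decay.
The sequence across both sites is printed on the transcribed strand (chr5:869383-869440, read from the minus strand), with the AG that ends the intron at each site in capitals.
BRD9 3′ site pair: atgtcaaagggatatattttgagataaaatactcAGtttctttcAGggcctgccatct
Of the 20 bases before the upstream AG, 10 were pyrimidines, and of those before the downstream AG 13 were. The exon was then read in the reading frame carried over from exon 14, and each form is printed from its first base to its first stop codon, in capitals.
BRD9 poison exon from the upstream site: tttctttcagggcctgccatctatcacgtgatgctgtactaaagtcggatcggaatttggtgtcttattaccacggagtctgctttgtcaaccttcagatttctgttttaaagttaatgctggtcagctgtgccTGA
BRD9 poison exon from the downstream site: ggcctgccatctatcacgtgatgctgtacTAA
With 1525 coding bases before the exon, the upstream form met TGA at exon bases 135 to 137, which is 23 bases before the end of the exon, and the downstream form met TAA at exon bases 30 to 32, which is 118 bases before it. The 2 forms therefore stopped in different frames. The reading frame held 553 codons before the stop in the upstream form and 518 in the downstream form, against 597 codons in the transcript without the exon. In both forms 2 exons followed the one with the stop.

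**Figure D1:**
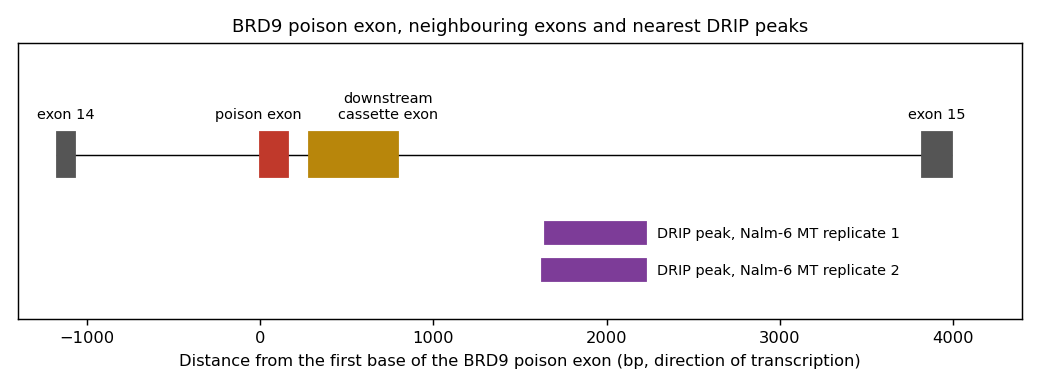
BRD9 poison exon, its neighbouring exons and the nearest DRIP-seq peaks, drawn to scale by distance in bases from the first base of the poison exon in the direction of transcription. Gray boxes are exons 14 and 15, the red box is the 160-base poison exon, the ochre box a 513-base cassette exon after it, and the purple bars the Nalm-6 MT peaks, which lie in the same intron 1486 and 1470 bases past the poison exon.

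Inclusion of the poison exon was near 0 in WT and higher in every MT library. The inclusion level, the share of transcripts with the exon as estimated from junction reads per length of each form, was 0.026, 0.012 and 0.019 in WT, against 0.393, 0.176 and 0.392 in MT for the upstream-site form. No MT library overlapped a WT library, and MT 2 was well under the other two MT libraries. The mean rose from 0.019 to 0.320, a difference of 0.301 ± 0.125 (n = 3 and 3), on a mean of 63.5 reads. Here and below, the value after ± is the square root of the summed WT and MT variances between libraries. It describes the spread of single libraries and is not a standard error of the difference of means.
Each WT library held 2 inclusion reads, with 37, 82 and 52 reads that skipped the exon. The MT libraries held 22, 21 and 58 inclusion reads, with 17, 49 and 45 that skipped it. The WT level thus rested on 6 inclusion reads in all and the MT level on 101. All 6 WT reads lay on the junction from the poison exon to exon 15, which both forms share. No WT read entered the exon at the upstream site, so the WT level does not measure use of that site. The reads have no molecular identifiers, so counts carry more error than counting alone.

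The event counted for the downstream-site form had a level of 0.026, 0.018 and 0.028 in WT, against 0.227, 0.109 and 0.256 in MT, again without overlap. The difference was 0.173 ± 0.078 on a mean of 54.3 reads, and this event was not called. Both forms share the skipping reads and the junction from the poison exon to exon 15, so their levels are not independent. That shared junction held 6 reads in WT and 51 in MT, of the 8 and 53 inclusion reads counted for the downstream form, and the downstream 3′ site itself held 2 reads in each genotype.

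The pair of 3′ sites separates the 2 forms, since its reads are those that enter the exon. The level of the longer, upstream-site form was 1.0, 0.834 and 1.0 in MT. In WT it was 0 in replicates 2 and 3, and replicate 1 had no read and no level. The MT libraries held 12, 11 and 29 reads for the upstream site and 0, 2 and 0 for the downstream site.
In WT, 0 reads used the upstream site and 2 used the downstream site, 1 in each of replicates 2 and 3. Entry into the poison exon in MT was therefore nearly all at the upstream site, 52 reads against 2. The difference of 0.945 ± 0.096 (n = 2 and 3) rested on 2 WT reads, which set no useful limit on the WT choice. The event passed the read minimum through MT alone, with the authors' mean at 0.7 reads in WT and 20.8 in MT, and it stayed outside the fit because a level was missing.

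**Figure D2:**
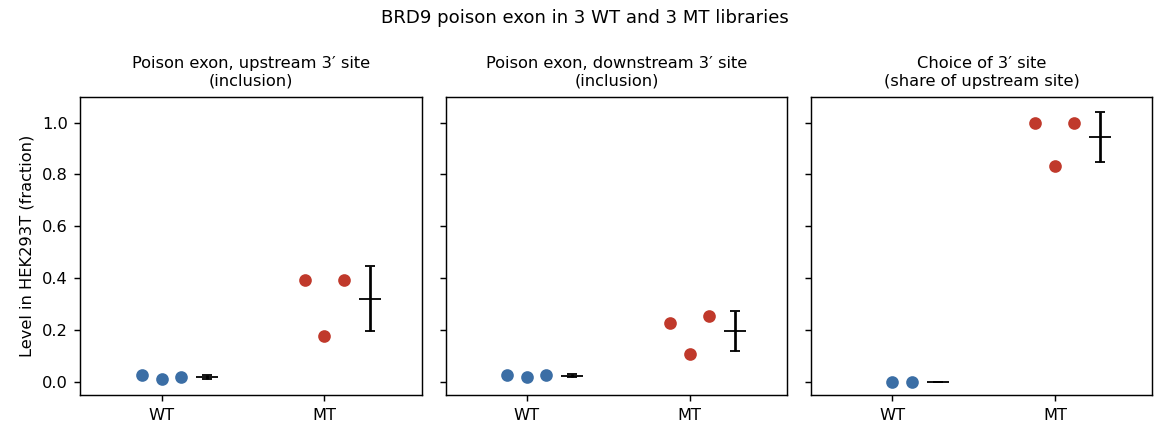
Levels of the BRD9 poison exon from the upstream 3′ site, of the poison exon from the downstream site, and of the choice between the sites, as fractions in 3 WT (blue) and 3 MT (red) HEK293T libraries, with the group mean and SD in black. MT lies above WT in all 3 panels, and WT replicate 1 has no point in the right panel because it held no read there. The left and middle panels share their skipping reads and the junction to exon 15. That junction held 51 of the 53 MT inclusion reads of the middle panel. The downstream site itself held 2 reads in each genotype, so the middle panel does not measure use of that site. Each WT point in the right panel rests on 1 read.

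A second cassette exon of 513 bases lies just after the poison exon (chr5:868607-869119) and was measured in transcripts spliced from the poison exon, so its reads depend on that exon's inclusion. It held 4, 3 and 2 reads in the WT libraries, against 10, 12 and 31 in MT, and passed the read minimum through MT alone. Its level was 0.333, 0.2 and 0 in WT, against 0, 0.091 and 0 in MT, a difference of -0.147 ± 0.176 on a mean of 10.5 reads, and the groups overlapped. It was the member event nearest above the read minimum, and the nearest below it, a pair of mutually exclusive exons of SS18, had 9.8 reads, with levels of 0.455, 0.75 and 0.556 in WT, against 0.846, 0.571 and 0.25 in MT.

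Outside the poison exon no BRD9 event was called. BRD9 had 22 events: 3 had the same level in every library, 1 lacked a level and 18 entered the fit. Of these, 3 used the poison exon. The other 15 differed by -0.141 to 0.13, and 1 of the 15 had non-overlapping groups.
That event was listed as a pair of mutually exclusive exons of 39 and 112 bases (chr5:871526-871564 and chr5:876101-876212). Its levels were 0.594, 0.597 and 0.639 in WT, against 0.586, 0.515 and 0.542 in MT. All 3 MT libraries were lower, by 0.062 ± 0.044. Measured as cassette exons, both exons were at a level of 1.0 in every library. Transcripts thus held both, and the level of this pair does not measure a choice between them.
An upstream pair of 3′ sites 60 bases apart had levels of 0.293, 0.436 and 0.234 in WT, against 0.330, 0.516 and 0.508 in MT for the longer form, and the difference of 0.130 ± 0.148 was within the spread. Another pair, 5 bases apart, differed by 0.004. Of the 11 cassette events of BRD9 that did not use the poison exon, 7 had a mean level of at least 0.95 in both genotypes.

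Junction reads of BRD9 outside the poison exon gave the only measure of its abundance here. Scaled to 1000000 junction reads of events with complete count lists, BRD9 had 234.6, 309.9 and 203.2 in WT, against 139.3, 238.7 and 264.7 in MT over 17 events. MT 1 was the lowest library and the other two MT libraries fell within the WT range, so the ratio of the means, 0.86, was within the spread. Over 9405 genes this ratio had a median of 1.03, with quartiles of 0.906 and 1.174. The complete lists favour events with few reads, so this is a rough measure.

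Across the 9 genes, 143 of the 155 events entered a fit over all events of the table (limma on arcsine-transformed levels). Another 11 had the same level in every library and 1, the BRD9 pair of sites above, lacked a level. The fit called 1 of the 143, the upstream form of the BRD9 poison exon, which was higher in MT, and 0.0311% of all 83581 events tested (26 events of 19 genes) were called at an adjusted p under 0.05 and a difference above 0.1. The members were chosen on this comparison, so nothing is read from that share. The call was lost when any 1 of the 6 libraries was left out, with a logit transform and without the variance trend, while the difference stayed between 0.265 and 0.373.
The 3 MT libraries lay all above or all below the 3 WT libraries in 8 of the 143 events (5.59%), 4 higher and 4 lower, against 5.46% of all events tested. A difference above 0.1 in size was found in 7 (4.9%), 3 higher and 4 lower, against 5.8% of all events. Of these 7, 5 were in BRD9, 3 of them at the poison exon, and 2 in SMARCA4. The 3 at the poison exon are not independent, and the cassette exon after it passed the read minimum through MT alone. The 2 in SMARCA4 used the same pair of sites, so the 7 events are not 7 separate changes.
The typical member event barely moved: 106 of 143 differed by less than 0.02. The median size of the difference was 0.006 over the 143 events, 0.005 over the 125 outside BRD9 and 0.0137 over all events tested in the table. SMARCC1, the gene with the most reads per event, gave 51 of the 143, with a median of 0.003. The other genes outside BRD9 had medians of 0.004 to 0.013. BRD9 had a median of 0.036 over its 18 tested events, and its listed events had a median of 55.0 reads. Read depth was not matched between the members and all events. Many member events had little room to move in 1 direction, since 76 of the 143 tested had a mean level of at least 0.95 in both genotypes.

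**Figure D3:**
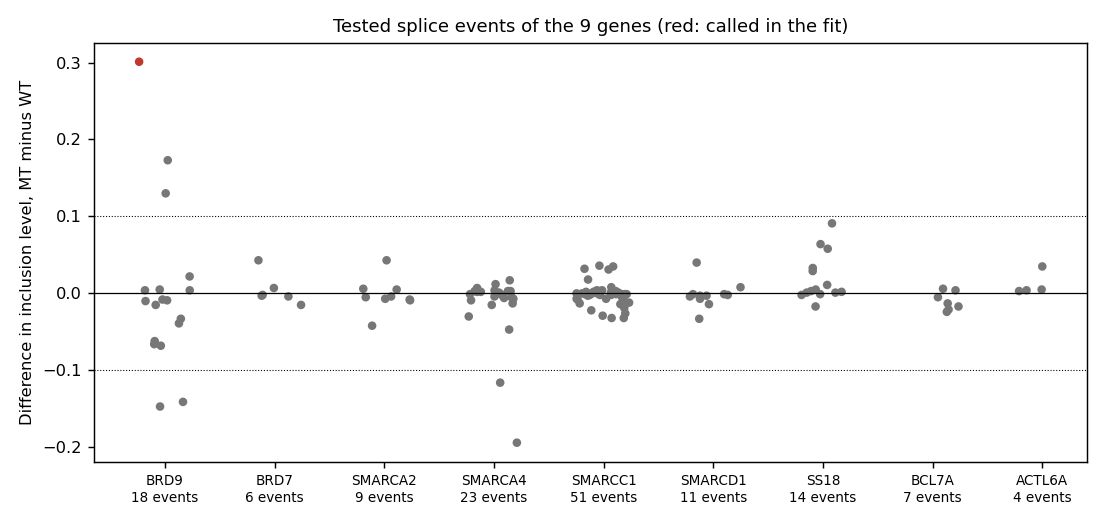
Difference in inclusion level (MT minus WT, a fraction) of each of the 143 tested splice events, by gene, with dotted lines at differences of 0.1 either way. The single called event, in red, is the BRD9 poison exon at 0.301, and only BRD9 and SMARCA4 have points outside the dotted lines.

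BRD7, a bromodomain protein related to BRD9 that belongs to the PBAF form, showed no comparable event. The gene (ENSG00000166164.17, chr16:50313487-50368988, minus strand) had 7 events, 6 of them tested. Its largest difference was at 2 sites 3 bases apart, where the longer form had levels of 0.411, 0.345 and 0.339 in WT, against 0.358, 0.383 and 0.482 in MT. The groups overlapped, with a difference of 0.043 ± 0.077 on a mean of 227.2 reads. The BRD7 event with the most reads, 526.0 on average, was a 144-base cassette exon that differed by -0.002.

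The 2 ATPases, SMARCA2 (BRM) and SMARCA4 (BRG1), are the alternative motors of the complexes. SMARCA2 (ENSG00000080503.25, chr9:1980290-2193624, plus strand) had 9 tested events, differing by -0.042 to 0.043. The largest was a pair of mutually exclusive exons with levels of 0.029, 0.048 and 0.044 in WT, against 0.069, 0.146 and 0.035 in MT, a difference of 0.043 ± 0.058. MT 2 was the high library there and MT 3 lay within the WT range. The best-covered event of the gene, a 143-base cassette exon with 81.7 reads, differed by -0.004.

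SMARCA4 (ENSG00000127616.22, chr19:10960932-11079426, plus strand) held the only differences above 0.1 outside BRD9. All 23 of its events were tested, none was called, and both large ones used the same pair of 3′ sites, 9 bases apart, at the start of exon 30 of the 35 exons of ENST00000344626.10. The exon is coding, so the 9 bases keep the reading frame. The sequence across the sites (chr19:11041262-11041318, plus strand) is printed with the last intron dinucleotide of each site in capitals, because the upstream site does not follow AG.
SMARCA4 3′ site pair: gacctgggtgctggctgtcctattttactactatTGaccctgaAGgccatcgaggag
The upstream site followed TG, which was so for 24 of the 5351 pairs of 3′ sites tested in the table (0.449%), whereas both sites followed AG in 98.5%. The annotation holds the upstream site in 13 and the downstream site in 27 of 55 SMARCA4 transcripts, 11 and 21 of them protein-coding.
From the exon upstream that most reads used, the level of the longer form was 0.381, 0.314 and 0.349 in WT, against 0.228, 0.265 and 0.204 in MT. All 3 MT libraries were under all 3 WT libraries, by 0.116 on average (difference -0.116 ± 0.045, mean of 359.0 reads), and the longer form was the less used in both genotypes.
From another upstream exon, with a mean of 15.6 reads, the level was 0.839, 0.688 and 0.902 in WT, against 0.479, 0.605 and 0.763 in MT. This event had the largest difference of the gene, -0.194 ± 0.180, but the groups overlapped.

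The other close pairs of 3′ sites moved less. Of the 12 pairs in the 9 genes, 6 others were 3 to 5 bases apart, in BRD9, BRD7, SMARCA2 and SMARCA4. Their differences ran from -0.047 to 0.043 and all 6 overlapped between genotypes. The best-covered of those in SMARCA4, 3 bases apart with 292.0 reads, had levels of 0.726, 0.667 and 0.675 in WT, against 0.674, 0.622 and 0.683 in MT. The SMARCA4 event with the most reads, 531.8, was listed as a pair of mutually exclusive exons and differed by 0.012. Measured as cassette exons, both had mean levels of at least 0.95 in both genotypes, so its level is not a choice between them. Pairs exactly 10 bases apart, as in BRD9, made up 0.318% of the tested pairs of the table, and pairs 9 bases apart 0.766%.

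**Figure D4:**
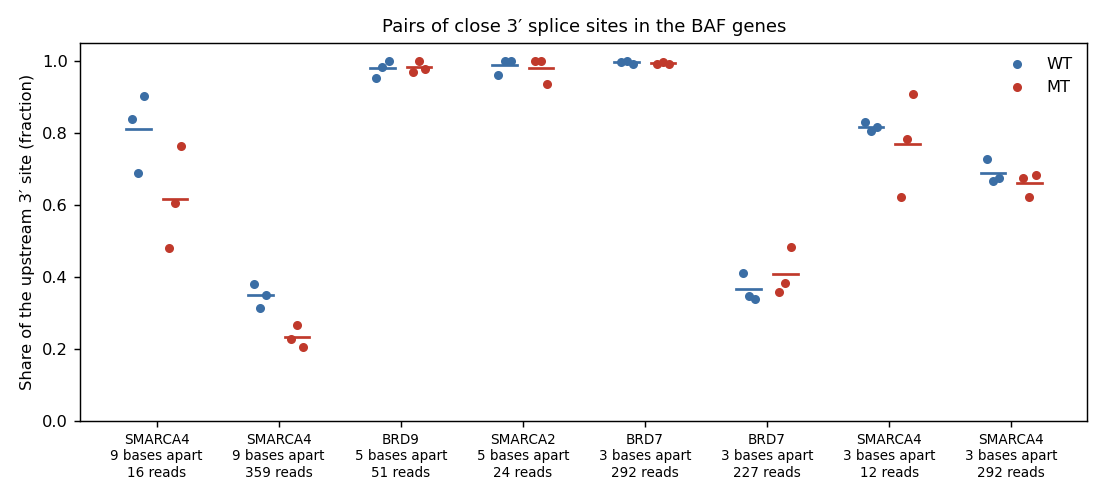
Share of the upstream 3′ site, as a fraction, at the 8 tested pairs of sites at most 10 bases apart in the 9 genes, with 3 WT (blue) and 3 MT (red) points and a line at each group mean. The SMARCA4 pair 9 bases apart with 359 reads is the only one in which all MT points lie under all WT points.

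SMARCC1 and SMARCD1 belong to the core that holds the complexes together. SMARCC1 (BAF155, ENSG00000173473.11, chr3:47585269-47782106, minus strand) was the deepest gene, with 54 events, 51 tested, and a median of 827.1 reads per event. All of its 33 cassette exons had a mean level of at least 0.95 in both genotypes.
Its largest difference was 0.036 ± 0.082, at 2 of these cassette exons that were also listed as a mutually exclusive pair. The pair had levels of 0.313, 0.414 and 0.297 in WT, against 0.319, 0.416 and 0.396 in MT. Since both exons were nearly always included, this level is not a choice between them. The event with the most reads, a 122-base cassette exon with 1549.7 reads, was at 1.000 in every library but MT 3, at 0.999. In 4 SMARCC1 events the groups did not overlap, 2 higher and 2 lower, but none of these differences was above 0.013.
SMARCD1 (BAF60A, ENSG00000066117.15, chr12:50085200-50100707, plus strand) had 11 tested events and no separated groups. Its largest difference, 0.040 ± 0.136, was at exons listed as a mutually exclusive pair, with levels of 0.468, 0.335 and 0.404 in WT, against 0.571, 0.420 and 0.337 in MT. Measured as cassette exons, both had mean levels of at least 0.941 in both genotypes, so this level is not a choice between them either. Its best-covered event, a 117-base cassette exon with 519.0 reads, differed by -0.001.

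SS18, BCL7A and ACTL6A are accessory subunits. SS18 (ENSG00000141380.14, chr18:26016253-26091217, minus strand), the gene fused to SSX in synovial sarcoma, had 14 tested events. Its largest difference was 0.091 ± 0.107, at a pair of 5′ sites 92 bases apart, with levels of 0.072, 0 and 0.201 in WT, against 0.144, 0.201 and 0.201 in MT on a mean of 14.8 reads. WT 3 equalled 2 of the MT libraries. Among the tested SS18 events, the one with the most reads, a 222-base cassette exon with 236.7 reads, differed by 0.001.
BCL7A (ENSG00000110987.9, chr12:122019422-122062044, plus strand) had 7 tested events. Its 97-base cassette exon was measured from 2 upstream exons, with a difference of -0.024 ± 0.041 at 115.5 reads and of -0.005 ± 0.019 at 238.3 reads. In the first, every library was at 1.0 except MT 2, at 0.929.
ACTL6A (BAF53A, ENSG00000136518.17, chr3:179562886-179588407, plus strand), an actin-like subunit shared by several remodelling complexes, had 4 tested events. Its pair of 5′ sites 144 bases apart had levels of 0.472, 0.638 and 0.538 in WT, against 0.447, 0.745 and 0.561 in MT, which overlapped, with a difference of 0.035 ± 0.172. The cassette exon with the most reads, 157.1, differed by 0.004. In these 3 genes no event had separated groups.

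The other subunits of the family gave a comparison for the 9 genes. Of 20 further BAF and PBAF genes listed, 18 had tested events, 176 in all. The fit called 0 of them (limma, Benjamini-Hochberg over all 83581 events), with 12 at an unadjusted p under 0.05. Their groups did not overlap in 9 events (5.11%) and differed by over 0.1 in 11 (6.25%), with a median size of 0.009.
The event nearest to a call, named after its values were seen, was listed as a pair of mutually exclusive exons of ARID1B, a subunit that defines canonical BAF. Its levels were 0.636, 0.749 and 0.655 in WT, against 0.785, 0.842 and 0.831 in MT, a difference of 0.139 that did not pass the test (limma, adjusted p = 0.724). Measured as cassette exons, the first exon had mean levels of 0.966 in WT and 0.992 in MT, and the second 0.953 and 0.897. Most transcripts thus held both, and the level of this pair does not measure a choice between them. Pairs of 3′ sites of these genes that separated the genotypes were also named afterwards. DPF1, a neuronal subunit with PHD fingers, had levels of 0.233, 0.248 and 0.297 in WT, against 0.482, 0.368 and 0.393 in MT at sites 30 bases apart. The difference was 0.155 on a mean of 28.9 reads (limma, adjusted p = 0.856). A PBRM1 pair 3 bases apart differed by 0.086 on 70.2 reads (limma, adjusted p = 0.856). Each of these events separated the genotypes by library, as 5.46% of all tested events did. The other tested pairs of 3′ sites in these genes overlapped between genotypes. Among them, another PBRM1 pair 3 bases apart differed by -0.012 on 140.1 reads, and an ARID1A pair 3 bases apart by -0.012 on 117.8 reads.

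DRIP-seq of Nalm-6 cells was not used to choose the genes and asked whether R-loops over them differed with the same mutation. Bona fide peaks, those of an untreated library that did not touch any peak of its RNH1-treated partner, numbered 26 and 20 over the 9 gene bodies in WT, against 39 and 53 in MT. Both MT libraries were higher, a log2 ratio of 1.0 ± 0.41 (SD, n = 2 and 2). A two-sided exact permutation test gave p = 0.333, the smallest that 2 libraries against 2 allow, so this comparison could not pass 0.05. Over all chromosomes the same log2 ratio was 0.56. Without the RNH1 subtraction the ratios were 1.19 over the 9 genes and 1.11 over all chromosomes. The lists hold no read totals, so the depth is unknown and its part in the counts was not tested.
The 2 longest genes held most of the peaks. SMARCA2 had 7 and 6 peaks in WT, against 15 and 17 in MT, and SMARCC1 had 9 and 5 in WT, against 12 and 20 in MT. These were the only 2 of the 9 genes in which both MT libraries were above both WT libraries, as they were in 24.5% of the 20033 protein-coding genes examined, whose lengths were not matched. SS18 had 4 and 2 peaks in WT, against 5 and 4 in MT, and the other genes had at most 4 in any library.

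**Figure D5:**
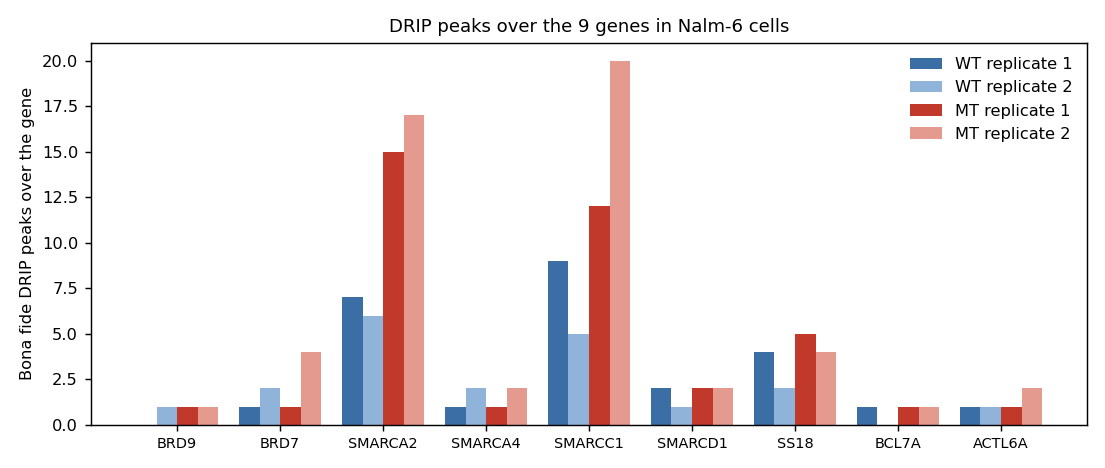
Number of bona fide DRIP-seq peaks over each of the 9 gene bodies in 2 WT (blue) and 2 MT (red) Nalm-6 libraries, 1 bar per library. SMARCA2 and SMARCC1 carry most peaks, with 15 and 17 and with 12 and 20 in MT.

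BRD9 itself had 1 peak at most in each library. WT 1 had none, WT 2 had 1 near the 3′ end of the gene (chr5:852129-852407, fold enrichment 4.85), and the MT libraries had 1 each at chr5:867176-867759 (5.54) and chr5:867176-867775 (6.35). The MT peaks coincide and lie in the intron between the poison exon and exon 15. No library had a peak on the poison exon, and the nearest peak of an MT library lay 1470 bases from it.
A peak found in both MT libraries with no WT peak at the same place was present in 7 of the 9 genes, all but SMARCD1 and ACTL6A, against 40.0% of the 20033 protein-coding genes examined. The reverse, a peak of both WT libraries without an MT peak, was present in 3, SMARCA4, SS18 and ACTL6A, against 23.7% of those genes. These gene bodies run from 15508 bases (SMARCD1) to 213335 bases (SMARCA2), longer genes have more room for a peak, and length was not matched in these shares. RNA and R-loops were measured in different cell lines, so the BRD9 poison exon and the BRD9 peak were not seen in the same cells.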

How the data were processed

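RNA-Seq and DRIP-seq were grouped by the genotype and treatment in the labels. The authors computed inclusion levels with the rMATS model, and the deposited level is a fraction with 3 decimals; they also deposited mean junction reads of each group, lists of junction counts, and the p-values, adjusted p-values, differences and significance flags of their own comparison, which were not used. The table lists 6 MT values per event, and 3 of them have columns, which were taken as the MT libraries; they carry no replicate number, so MT 1 to MT 3 follow column order. Whether these columns are the MT samples of the series is not settled, and the levels of the other 3 were not used. The mean MT reads are the authors' mean. In the 88430 events with complete count lists it equals the mean over all 6 listed values. The read minimum and the mean reads given for events thus take in the 3 values whose levels were not used. DRIP-seq peaks were called by the authors per library with MACS2 and deposited with their fold enrichment, a ratio over local background. The −log10 p and q-values and the score that were deposited with the peaks were not used. STAR, StringTie and BWA are named in the submitters' processing notes, and reads of DRIP-seq were aligned to GRCh38.

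The square root of each level was arcsine-transformed and compared with limma 3.58.1 in R 4.3.3, the variance following a trend on log mean reads. Events needed at least 10 mean reads, a level in all 6 libraries and a level that varied. They were called at a Benjamini-Hochberg adjusted p under 0.05 and a difference above 0.1. The fit was tested on simulated data. No count model was used. The MT counts were read at the list positions whose levels equal the MT columns. Neither these counts nor the MT levels are tied to samples of the series. Read totals of events with complete count lists ran from 3946942 to 5265438 per library, and levels recomputed from those counts matched the deposited ones within 0.001. Binomial intervals were not used, since levels are length-weighted. Starts in the table are 0-based and are given here counted from 1. All 155 first exons matched GENCODE exons, and sequences were read from GRCh38. The members and gene lists were chosen with earlier results of these data known. For each gene other than BRD9, the tested events with the largest difference and with the most reads were named, and every event of the BRD9 poison exon and any called event. For DRIP-seq, an untreated peak was kept as bona fide if it overlapped nothing in the RNH1 list with its genotype and replicate number. Alternatives covered the transform, the read minimum, the variance trend, the difference needed, each library left out, averaging, and the DRIP-seq subtraction, threshold, overlap and pairing.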

Additional observations from a re-analysis of the deposited data

How the results depend on the processing

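The difference in inclusion of the BRD9 poison exon kept its direction and size in every alternative run, from 0.265 to 0.373 with a library left out and 0.373 between medians. The choice of 3′ site gave 0.917 to 1.0, but on 1 read in each of WT replicates 2 and 3, so this range says nothing about its stability. The call of the poison exon was less stable. The 9 genes had 1 called event with a minimum of 20 reads, with no minimum and with a difference above 0.2, but 0 with the logit transform and 0 without the variance trend. Leaving out a library gave 0 to 1 in the 9 genes: the poison exon lost its call whichever of the 6 libraries was left out, and without WT replicate 1 the 1 call was its pair of 3′ sites, which set the MT libraries against 2 WT reads and carries no weight. Over all genes the 26 calls became 3 with the logit transform and 0 without the trend, and 3 to 13 with a library left out. The other BAF genes had 0 calls in each alternative. The median size of the difference outside BRD9 stayed between 0.003 and 0.0073, and was 0.0045 to 0.0064 with a library left out. No paired analysis was possible for the RNA-Seq because the MT columns carry no replicate number. For DRIP-seq the log2 ratio of peaks was 1.19 without RNH1 subtraction, 0.89 at a fold enrichment of at least 4, 1.11 with a looser overlap limit, by which RNH1 peaks had to cover most of a peak to remove it, and 0.77 to 1.22 with a library left out. Over all chromosomes, the first 3 of these settings gave 1.11, 0.23 and 0.61, against 0.56 with subtraction, so the gap between the 9 genes and the genome depends on the setting. With the replicate number as a block it was 1.0 (exact permutation p = 0.5). The WT counts of 2 reads per library limit the WT level of the poison exon, and the unknown DRIP-seq depth limits the peak counts.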
